A study of Mus musculus with 6 samples.

Results

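Type I interferon-stimulated genes were followed in 3T3-L1 adipocytes, a mouse embryonic fibroblast line used as a culture model of fat cells, with and without flavonoids from Smilax glabra, a climbing plant used in herbal medicine. One group of 3 samples received 0.125 μg/mL of the flavonoids and the other group of 3 samples was left untreated. Both groups are the same line, sampled at day 8 of differentiation per the labels; how long the flavonoids were present is not given in the sources used here. The genes are the 46 symbols of a list of interferon-inducible genes and of the receptor and transcription factors that act on them, and all 46 have a row among the 46095 of the deposited table. Values are FPKM, fragments scaled to gene length and to library depth. Whole fragments worked back from the steps between FPKM values gave 24621562 to 26355863 per treated library and 21952064 to 25083868 per untreated library. The 14 markers of mature adipocytes were mixed. Fabp4 measured 149 to 194 FPKM in treated and 177 to 251 FPKM in untreated samples and Lpl 178 to 306 FPKM in treated and 144 to 192 FPKM in untreated samples, and Pparg, Cebpa and Plin4 also averaged at least 1 FPKM. The other 9, among them Adipoq, Plin1, Cd36, Slc2a4 and Lep, stayed under 1 FPKM in every library.

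Type I interferons are secreted proteins that act through a receptor of the chains IFNAR1 and IFNAR2. The receptor's kinases activate transcription factors, STAT2 among them, which with IRF9 enter the nucleus and bind the interferon-stimulated response element in the promoters of target genes. Those targets encode RNA sensors, the ubiquitin-like modifier ISG15 and its enzymes, enzymes and membrane proteins that hinder viruses, and further transcription factors such as IRF7 that amplify the response. Many cell types, fibroblasts among them, keep part of this set at a basal level without infection.

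Promoters of 4 genes are shown because each holds the core of that response element, GAAA and GAAA with any 2 bases between, or its reverse complement, in the bases just before the start of the gene, and because 3 of them (Gbp3, Ifit1 and Oas1a) belong to genes that were lower with flavonoids. Sequences are RefSeq's for the reference strain on GRCm38.p6, not those of the 3T3-L1 line, and run 5′ to 3′ on the strand of the gene, with every copy of the core in capitals. They lie at chr3:142559964-142560024 on the plus strand (Gbp3), chr19:34640779-34640869 on the plus strand (Ifit1), chr5:120907526-120907605 on the minus strand (Oas1a) and chr4:156200819-156200898 on the minus strand (Isg15).
Gbp3: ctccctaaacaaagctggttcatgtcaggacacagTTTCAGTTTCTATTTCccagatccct
Ifit1: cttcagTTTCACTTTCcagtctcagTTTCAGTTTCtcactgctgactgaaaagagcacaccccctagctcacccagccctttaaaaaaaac
Oas1a: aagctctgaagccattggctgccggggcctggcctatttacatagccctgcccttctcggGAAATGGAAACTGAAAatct
Isg15: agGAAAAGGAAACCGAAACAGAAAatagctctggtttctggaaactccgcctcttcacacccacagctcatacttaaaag

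Copies of the core overlap one another in Gbp3, Oas1a and Isg15, where they start 6 bases apart, and stand apart in Ifit1. Windows of 300 bases, from 250 before to 50 after the start, were in the RefSeq table for 37 of the 46 genes. The core was found on either strand in 16 of those 37 genes (43.2%), against 3.99% of all 27025 genes in the table. By window, 37.2% of those of the list and 3.44% of all 32851 held it. It was present in 4 of 8 called genes with a window and in 9 of 23 tested genes that were not called. The gamma-activated site TTCNNNGAA, a motif of the response to interferon gamma, was found in 11 of the 37 genes, and in 9.55% of all genes. It overlapped the response element core in 2 genes, Bst2 and Ifitm3. A match is a description of letters and not of binding.

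Interferon-stimulated genes were lower in flavonoid-treated cells in 13 of the 39 members that reached a mean of 1 FPKM and were therefore tested, and in none were they higher (adjusted p under 0.05 by limma's test of log2(FPKM + 1), with Benjamini-Hochberg correction over 11464 genes). Over all tested genes 5.13% were called lower, 4.86% higher and 9.99% in either direction, so the 33.3% lower among the members lay above the general share. The median log2 change was -0.44 over the 39 tested members and -0.02 over all tested genes. Of the 39 estimates 37 were negative, where 52.6% of all tested genes had a negative one. The 13 called genes are Ifi27l2a, Irf7, Gbp3, Mx2, Ifit1, Eif2ak2, Rtp4, Usp18, Oasl2, Ifi44, Oas1a, Dhx58 and Lgals3bp, and their mean FPKM was 1.36-fold to 3.39-fold lower in treated cells. On the scale of log2(FPKM + 1), which understates changes of low genes, 3 of them were called and at least 2-fold lower, as were 1.02% of all tested genes. These 3 are Ifi27l2a, Irf7 and Gbp3. By mean FPKM, Mx2 (3.31-fold), Ifi44 (2.69-fold), Ifit1 (2.05-fold), Eif2ak2 (2.04-fold) and Usp18 (2.001-fold) were at least 2-fold lower too. In 21 tested members all 3 treated values lay below all 3 untreated values, and in 1, Parp12, they lay above, where 17.3% and 17% of all tested genes did so. Fewer cells of a type and less RNA per cell cannot be told apart in such bulk samples.

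**Figure D1:**
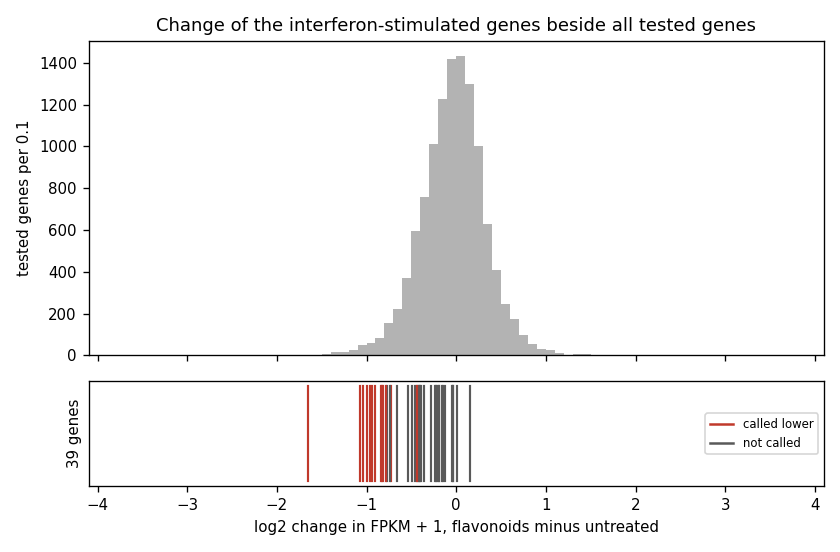
The upper panel is a histogram of the log2 change in FPKM + 1 (flavonoids minus untreated) of all 11464 tested genes. The lower panel marks the same change for each of the 39 tested interferon-stimulated genes, which sit between -1.66 and 0.15, with the 13 called lower in red.

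These counts depend on single libraries. Calls among the members numbered 1 without untreated replicate 2 (Ifi27l2a alone), 3 without flavonoids replicate 1 (Gbp3, Ifi27l2a and Mx2), 5 without flavonoids replicate 2 and 6 without flavonoids replicate 3. They numbered 15 without untreated replicate 1 and 17 without untreated replicate 3. The share of all genes called lower moved as well, between 0.707% without untreated replicate 2 and 7.27% without untreated replicate 1. In each of those fits 0 members were called higher and the members' median stayed between -0.50 and -0.37. With all 6 libraries, 22 members had an unadjusted p under 0.05 and were lower and 0 were higher, where 14.3% and 12.8% of all genes were. Over the 19 other settings tried, Ifi27l2a kept its call in 19, Irf7 and Oasl2 in 17, Ifit1 in 16, Rtp4 and Usp18 in 14, Dhx58 in 13, Lgals3bp in 12, Eif2ak2 in 11 and Oas1a in 7. Of the 18 settings that tested them, Gbp3 kept its call in 16, Mx2 in 14 and Ifi44 in 12.

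**Figure D2:**
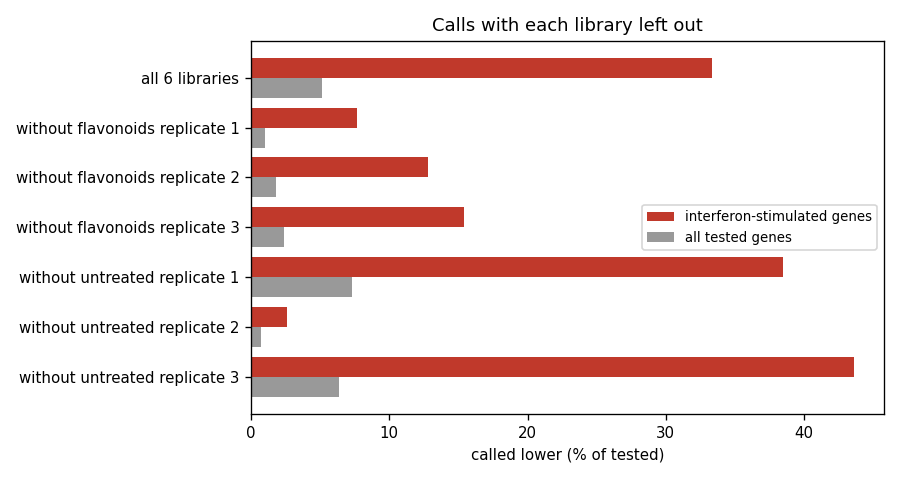
Bars give the percentage of tested genes called lower with flavonoids, for the 39 interferon-stimulated genes in red and for all 11464 tested genes in grey, with all 6 libraries and with each library left out in turn. Both shares are lowest without untreated replicate 2, at 2.56% of the members and 0.707% of all genes.

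The receptor chains differed by less than the spread between samples. Ifnar1 measured 20.2, 20.1 and 20.7 FPKM in treated replicates 1 to 3, against 18.3, 22.5 and 22.5 FPKM in untreated replicates 1 to 3, the order in which samples are given throughout. The groups overlapped, and the log2 change was -0.04 with a 95% interval of -0.32 to 0.23 (adjusted p = 0.849). Ifnar2 measured 49.4, 49.5 and 44.8 FPKM in treated samples, against 56.2, 48.0 and 43.3 FPKM in untreated samples. These too overlapped, with a log2 change of -0.03 and an interval of -0.32 to 0.26. The sign of both estimates flipped under some settings, among them removal of each library's length trend.

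Among the 5 transcription factor genes Irf7 was the one called. Irf7, the factor that drives interferon alpha genes and is itself interferon-inducible (chromosome 7, 141262706 to 141266481, minus strand, GRCm38), measured 8.17, 8.94 and 9.48 FPKM in treated samples, against 24.5, 21.3 and 14.7 FPKM in untreated samples. Every treated library lay below every untreated one, and the untreated libraries spread far more widely than the treated ones. Its mean was 8.87 ± 0.662 in treated and 20.2 ± 4.99 FPKM in untreated cells (SD, n = 3 each), a log2 change of -1.08 (SE 0.18, limma adjusted p = 0.0103). Irf3, the constitutive relative of Irf7 that is switched on by phosphorylation, measured 23.3, 25.3 and 29.0 FPKM in treated samples, against 28.6, 27.1 and 21.8 FPKM in untreated samples. Its groups overlapped and its log2 change was 0.00 with a 95% interval of -0.31 to 0.32.

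Stat2, a transcription factor activated by the receptor's kinases, measured 5.29, 5.77 and 5.02 FPKM in treated samples, against 7.17, 7.70 and 9.03 FPKM in untreated samples. The groups did not overlap, but the gene missed the threshold (log2 change -0.49, SE 0.13, limma adjusted p = 0.0506, n = 3 per group). It passed in 6 of 19 other settings, with adjusted p between 0.0196 and 0.184 over them. Irf9, the DNA-binding partner of STAT2, measured 15.5, 15.2 and 15.96 FPKM in treated samples, against 18.9, 19.0 and 14.8 FPKM in untreated samples. Untreated replicate 3 lay below all 3 treated libraries and the other untreated libraries above them, and the log2 change was -0.16 with a 95% interval of -0.45 to 0.14. Irf1, an early response factor also induced by interferon gamma, averaged 30.6 ± 1.14 FPKM in treated and 35.0 ± 2.91 FPKM in untreated cells (adjusted p = 0.320).

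Of the RNA sensors, which recognise double-stranded viral RNA in the cytosol, Dhx58 was called. Dhx58 encodes LGP2, a helicase that tunes the signal of RIG-I and MDA5 (chromosome 11, 100694884 to 100704271, minus strand), and measured 5.47, 7.14 and 7.56 FPKM in treated samples, against 13.8, 11.8 and 9.78 FPKM in untreated samples. The groups did not overlap, and the log2 change was -0.73 (SE 0.16, limma adjusted p = 0.0285, n = 3 per group). It lost its call in 6 of 19 other settings (adjusted p between 0.00546 and 0.130). Ddx58, which encodes RIG-I itself, measured 4.79, 4.49 and 4.33 FPKM in treated samples, against 5.45, 6.94 and 7.21 FPKM in untreated samples. Although these groups did not overlap either, Ddx58 had adjusted p = 0.0857 (log2 change -0.44, SE 0.14). Ifih1, which encodes MDA5, was too low to be tested, at 0.0796, 0.0752 and 0.0804 FPKM in treated samples, against 0.180, 0.132 and 0.158 FPKM in untreated samples. Those values rest on 11 fragments in each treated library and on 22, 17 and 22 fragments in the untreated libraries. Trim25, a ubiquitin ligase that activates RIG-I and was grouped with the sensors, measured 5.78 to 6.46 FPKM in treated and 6.43 to 7.87 FPKM in untreated samples (adjusted p = 0.331).

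In the ISG15 system, Usp18, the protease that removes ISG15 and also restrains signalling at IFNAR2, measured 5.28, 4.47 and 4.06 FPKM in treated samples, against 11.7, 9.12 and 6.77 FPKM in untreated samples. It was 2.001-fold lower in mean FPKM without overlap of the groups (log2 change -0.84, SE 0.19, limma adjusted p = 0.0280, n = 3 per group). Isg15, the modifier whose promoter is printed above, measured 40.3, 33.9 and 29.5 FPKM in treated samples, against 85.0, 63.1 and 38.6 FPKM in untreated samples. Untreated replicate 3 fell below treated replicate 1, and with means of 34.6 ± 5.44 in treated and 62.2 ± 23.2 FPKM in untreated cells (SD, n = 3 each) Isg15 missed the threshold (adjusted p = 0.0945). Herc6, the ligase that attaches ISG15 in the mouse, measured 1.19 to 2.31 FPKM in treated and 2.21 to 3.10 FPKM in untreated samples (adjusted p = 0.155).

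**Figure D3:**
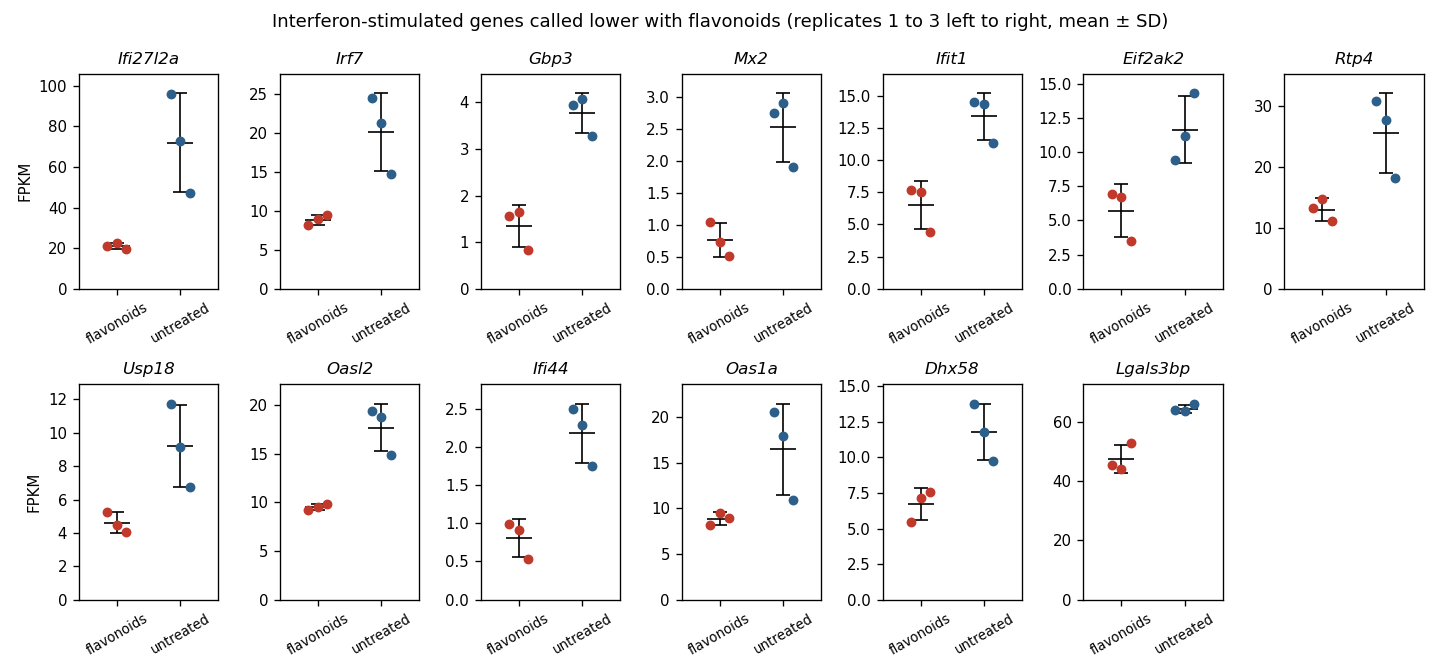
Each panel plots FPKM of 1 of the 13 genes called lower, with flavonoids in red left of untreated in blue, points for replicates 1 to 3 from left to right and black bars for mean ± SD. No red point reaches a blue one, and in 11 of the 13 panels untreated replicate 1 stands above untreated replicate 3.

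Antiviral effectors were the largest group, with 16 genes, of which 12 were tested and 5 called, all lower. Ifit1, which binds foreign RNA ends and blocks their translation (chromosome 19, 34640871 to 34650009, plus strand), measured 7.69, 7.504 and 4.39 FPKM in treated samples, against 14.5, 14.4 and 11.3 FPKM in untreated samples. The groups stood well apart, with a log2 change of -0.96 (SE 0.20, limma adjusted p = 0.0208, n = 3 per group). Its neighbours in the same cluster were not called: Ifit2 ranged from 7.86 to 15.1 FPKM in treated and from 13.1 to 16.2 FPKM in untreated samples (adjusted p = 0.546), and Ifit3 from 10.2 to 15.3 FPKM in treated and from 13.7 to 22.2 FPKM in untreated samples (adjusted p = 0.231). Ifit3 has a near copy, Ifit3b, which was called lower at 1.78, 1.57 and 1.15 FPKM in treated samples, against 5.42, 4.23 and 3.09 FPKM in untreated samples (log2 change -1.05, limma adjusted p = 0.0137). How fragments were shared between Ifit3 and Ifit3b is not given in the sources used here, so both values are uncertain.

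The oligoadenylate synthetase family, which senses double-stranded RNA, was represented by 3 members. Oasl2 measured 9.21, 9.53 and 9.80 FPKM in treated samples, against 19.4, 18.8 and 14.9 FPKM in untreated samples. Here the treated libraries were nearly alike and the lowest untreated one lay well above them (log2 change -0.82, SE 0.13, limma adjusted p = 0.00872, n = 3 per group). Oas1a, whose promoter is shown above, measured 8.21, 9.54 and 8.91 FPKM in treated samples, against 20.6, 17.9 and 11.0 FPKM in untreated samples. Its groups did not overlap, but with adjusted p = 0.0486 it sat at the threshold and lost its call in 12 of 19 other settings (adjusted p between 0.00269 and 0.195). Near copies of Oas1a adjoin it in the genome, so its value is uncertain too. Oasl1, which in the mouse represses translation of Irf7, measured 0.160 to 0.449 FPKM in treated and 0.360 to 0.415 FPKM in untreated samples and was not tested.

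Eif2ak2, the kinase PKR that halts translation on binding double-stranded RNA, measured 6.96, 6.70 and 3.52 FPKM in treated samples, against 9.46, 11.2 and 14.3 FPKM in untreated samples. The groups did not overlap, and untreated replicate 3 was the highest library, unlike in Oas1a (log2 change -0.94, SE 0.24, limma adjusted p = 0.0405, n = 3 per group). It lost its call in 8 of 19 other settings (adjusted p between 0.00674 and 0.139). Mx2, an antiviral dynamin-like GTPase gene annotated as a polymorphic pseudogene in the reference strain (chromosome 16, 97535308 to 97560900, plus strand), measured 1.04, 0.732 and 0.516 FPKM in treated samples, against 2.75, 2.91 and 1.91 FPKM in untreated samples. It was 3.31-fold lower in mean FPKM without overlap (log2 change -0.998, SE 0.18, adjusted p = 0.0127). Its relative Mx1 averaged under 1 FPKM over the 6 libraries and so was not tested, at 0.607, 0.252 and 0.299 FPKM in treated samples, against 1.31, 1.33 and 1.32 FPKM in untreated samples. Those values rest on 41, 18 and 20 fragments in treated and 78, 84 and 90 fragments in untreated libraries. Without a filter on low values Mx1 was called (adjusted p = 0.0351), in a fit that called 1.46% of its genes lower and 4 of the 46 members. Mx1 and Mx2 are paralogs.

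The most abundant effectors were not among the called ones. Ifitm3, a membrane protein that blocks entry of viruses, measured 977, 1019 and 1042 FPKM in treated samples, against 1347, 1179 and 881 FPKM in untreated samples, and its close copy Ifitm2 measured 953 to 1084 FPKM in treated and 878 to 1203 FPKM in untreated samples. For both genes the treated values fell inside the untreated range, with 95% intervals of the log2 change of -0.57 to 0.28 for Ifitm3 and -0.43 to 0.35 for Ifitm2. Bst2, the tetherin that holds budding virions at the cell surface, measured 299, 297 and 281 FPKM in treated samples, against 433, 340 and 254 FPKM in untreated samples (adjusted p = 0.553). Isg20, an RNA exonuclease, and Samd9l, an antiviral protein, had all treated values below all untreated values but adjusted p = 0.122 and 0.0810. Rsad2, which encodes viperin, and its neighbour Cmpk2, a mitochondrial nucleotide kinase, averaged 0.568 ± 0.273 and 0.619 ± 0.0744 FPKM in treated cells, against 0.898 ± 0.279 and 0.955 ± 0.292 FPKM in untreated cells, and were not tested.

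Interferon-inducible GTPases, which attack the vacuoles of intracellular pathogens, had 3 tested members of 5. Gbp3, one of the guanylate-binding proteins, measured 1.55, 1.65 and 0.823 FPKM in treated samples, against 3.95, 4.08 and 3.28 FPKM in untreated samples. It was 2.81-fold lower in mean FPKM with no overlap (log2 change -1.04, SE 0.18, limma adjusted p = 0.0110, n = 3 per group). Gbp2 measured 3.70 to 5.47 FPKM in treated and 5.79 to 9.33 FPKM in untreated samples, without overlap but with adjusted p = 0.0659. Irgm1, a regulator of the immunity-related GTPases, measured 3.19 to 5.96 FPKM in treated and 3.87 to 6.32 FPKM in untreated samples (adjusted p = 0.777). Igtp and Ifi47 stayed under 1 FPKM in every library and were not tested.

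None of the 4 genes of the ADP-ribosylation group was called. Parp9 and Dtx3l, which encode partners in 1 complex and are transcribed from opposite strands, share 458 exonic bases in the annotation, so their fragments cannot be told apart there without strand. Parp9 averaged 8.70 ± 1.88 in treated and 11.7 ± 0.757 FPKM in untreated cells, and Dtx3l 3.37 ± 0.405 in treated and 4.65 ± 1.001 FPKM in untreated cells (SD, n = 3 each; adjusted p = 0.142 and 0.213). Parp14 measured 0.753 to 1.58 FPKM in treated and 1.35 to 2.45 FPKM in untreated samples. Parp12 had the highest estimate of all tested members, at 11.0, 10.8 and 12.3 FPKM in treated samples, against 10.4, 9.73 and 10.2 FPKM in untreated samples. Its 95% interval ran from -0.11 to 0.41 on the log2 scale.

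The remaining 7 genes held 4 calls, including the largest change. Ifi27l2a, a small interferon-inducible protein of the ISG12 family (chromosome 12, 103442167 to 103443680, minus strand), measured 21.2, 22.7 and 19.8 FPKM in treated samples, against 95.9, 73.0 and 47.0 FPKM in untreated samples. The treated libraries were nearly alike, while the untreated ones differed 2.04-fold between replicates 1 and 3 and yet all exceeded them. Its log2 change was -1.66 (SE 0.23, limma adjusted p = 0.00546, n = 3 per group), and it passed in all 19 other settings, with adjusted p between 2.9e-05 and 0.0386. The adjacent paralog Ifi27 measured 82.0, 82.3 and 84.9 FPKM in treated samples, against 130, 96.9 and 72.4 FPKM in untreated samples. There the treated values lay within the untreated range, and the log2 change was -0.22 with a 95% interval of -0.66 to 0.22.

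Rtp4, a chaperone of membrane receptors that also acts on RNA viruses, measured 13.3, 14.7 and 11.1 FPKM in treated samples, against 30.8, 27.7 and 18.3 FPKM in untreated samples. The groups did not overlap (log2 change -0.90, SE 0.20, limma adjusted p = 0.0245, n = 3 per group). Ifi44, a cytosolic interferon-induced protein, measured 0.989, 0.920 and 0.527 FPKM in treated samples, against 2.50, 2.29 and 1.76 FPKM in untreated samples, again apart (log2 change -0.82, adjusted p = 0.0205). Lgals3bp, a secreted binding partner of galectin-3, had the narrowest untreated spread of the called genes relative to its mean. It measured 45.4, 44.2 and 52.9 FPKM in treated samples, against 63.8, 63.5 and 66.0 FPKM in untreated samples, and was the smallest called change (1.36-fold, log2 change -0.44, SE 0.11, adjusted p = 0.0446). That call was lost in 7 of 19 other settings (adjusted p between 0.0172 and 0.187). Annotated exons of Irf7, Dhx58, Usp18, Eif2ak2 and Rtp4 share 45 to 296 bases with those of another gene, and fragments there cannot be assigned without the counting rule. Xaf1, a pro-apoptotic protein, measured 5.02 to 5.88 FPKM in treated and 7.07 to 10.3 FPKM in untreated samples and had adjusted p = 0.0614. Ifi35 averaged 28.5 ± 1.05 in treated and 36.2 ± 12.3 FPKM in untreated cells (SD, n = 3 each; adjusted p = 0.446).

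Side by side, 1 of 3 tested sensor genes, 1 of 5 transcription factor genes and 5 of 12 tested effector genes were called, all lower, where 5.13% of all tested genes were called lower. The median log2 change was -0.44 for the sensors, -0.19 for the transcription factors and -0.57 for the effectors. The sensors counted here are Ddx58 (-0.44), Dhx58 (-0.73) and Trim25 (-0.21), which acts on RIG-I and is not itself a sensor. Eif2ak2 and the synthetases, described above as binding or sensing double-stranded RNA, were counted as effectors. The medians of sensors and effectors therefore depend on this grouping. Outside these 3 roles, calls fell in 1 of 3 tested genes of the ISG15 system and 1 of 3 immunity GTPases. They fell in 0 of 4 genes of the ADP-ribosylation group, 4 of the 7 remaining genes and 0 of 2 receptor genes. The effectors counted here are therefore not all the antiviral genes of the list. Differences between roles were not tested, and the estimates within each role spread widely, from -1.08 to 0.00 in the transcription factors and from -0.998 to -0.04 in the effectors.

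**Figure D4:**
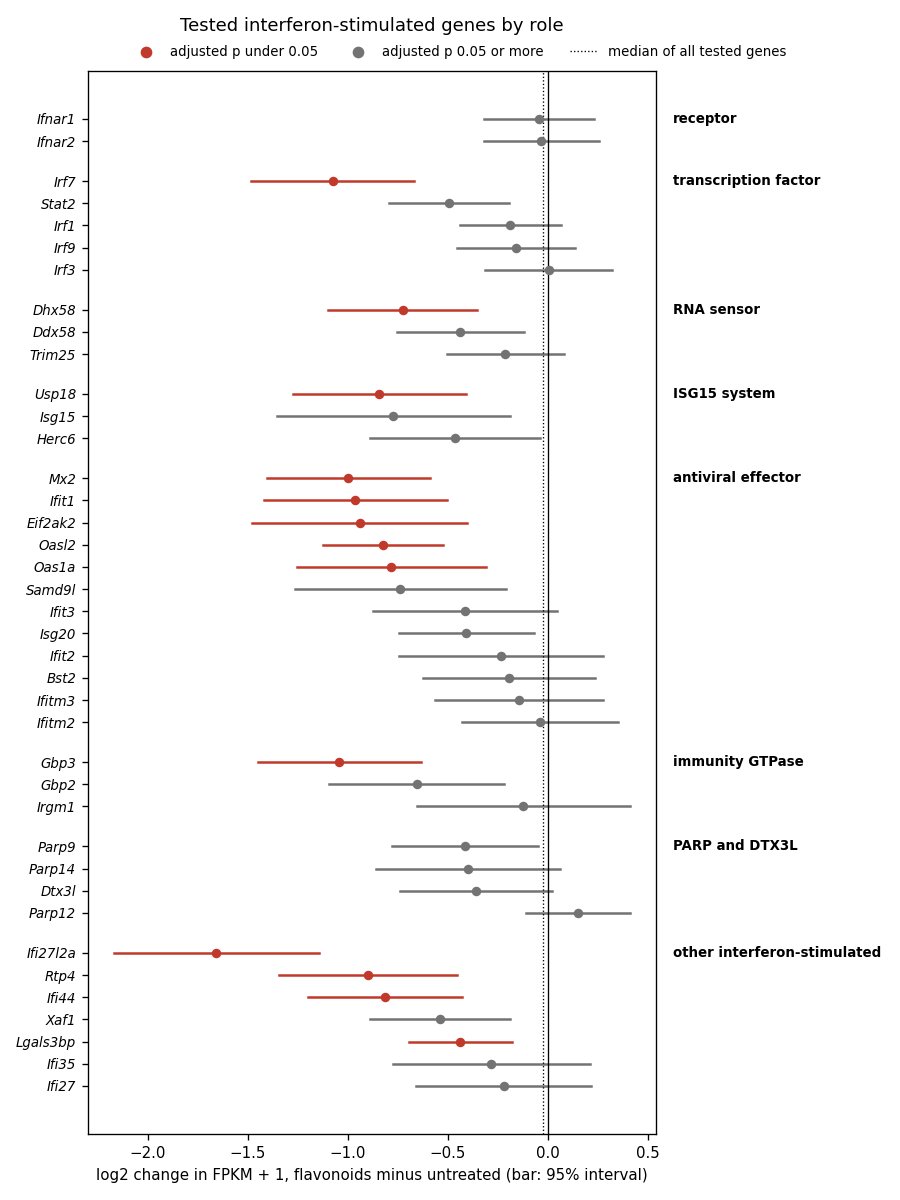
Points give the log2 change in FPKM + 1 (flavonoids minus untreated) of the 39 tested genes by role, bars the 95% interval, red the 13 genes with adjusted p under 0.05, and the dotted line the median of all tested genes, -0.02. Intervals of 22 genes lie wholly below 0 and those of the other 17 span it.

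The untreated libraries differed among themselves in a way that followed gene length. Over all tested genes the slope of a library's deviation on log2 length, as implied by the FPKM steps, was -0.116 in untreated replicate 1, 0.0169 in replicate 2 and 0.159 in replicate 3, and lay between -0.0303 and -0.0123 in the treated libraries. Of the 20 shorter tested members (up to 2471 bases), 19 were higher in untreated replicate 1 than in replicate 3, and of the 19 longer ones 9 were. Calls fell in 8 of the 20 shorter and 5 of the 19 longer members, with medians of -0.42 and -0.44. Over all tested genes of the same lengths, 5.30% of 4909 shorter and 5.004% of 6555 longer ones were called lower, with medians of 0.04 and -0.07. With each library's smooth trend over length removed, 20 members were called lower and 0 higher, among 9.87% of all genes called lower. All 13 genes named above remained called there, and Isg15, Stat2, Ddx58, Gbp2, Isg20, Samd9l and Xaf1 joined them.

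**Figure D5:**
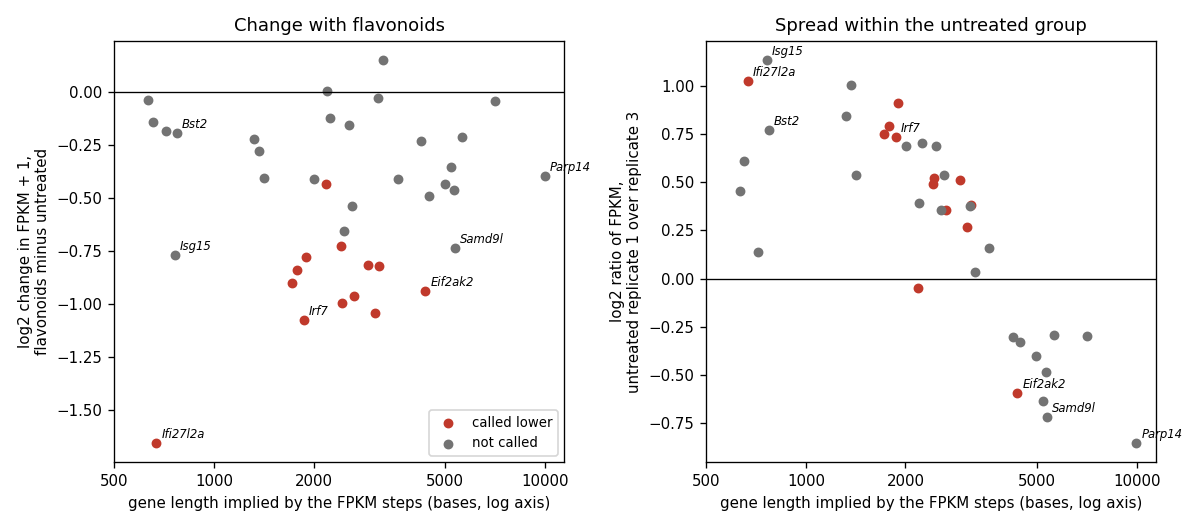
Both panels plot the 39 tested genes against the gene length implied by the FPKM steps on a log axis, with called genes in red. The left panel gives the log2 change with flavonoids, and the right panel the log2 ratio of untreated replicate 1 over replicate 3, where the ratio itself runs from 2.20 for Isg15 to 0.552 for Parp14.

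Other genes of the interferon pathway were taken from 5 lists of 137 genes, 83 of them tested, of which 11 were called lower and 0 higher, beside 5.13% lower and 4.86% higher over all tested genes. Of 21 interferon ligand genes 20, Ifnb1 among them, were listed at 0 in all libraries, and Ifnz reached at most 0.124 FPKM. Broadly expressed genes such as Tapbp and Daxx were listed at 0 in all libraries too, so a 0 in this table does not show that a gene is silent. Of 16 tested genes of receptor signalling and its inhibitors 0 were called. Socs1, an inhibitor of the receptor's kinases, averaged 6.49 ± 0.505 in treated and 9.11 ± 0.995 FPKM in untreated cells (SD, n = 3 each; limma adjusted p = 0.0726). The receptor kinase gene Jak1 measured 33.3, 32.9 and 25.5 FPKM in treated samples, against 23.5, 31.1 and 29.5 FPKM in untreated samples. Tyk2, its partner, measured 5.05 to 6.11 FPKM in treated and 4.50 to 6.36 FPKM in untreated samples. Both overlapped between groups, with log2 changes of 0.12 and 0.07.

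Of 18 tested sensing and adaptor genes 1 was called, a share near the 5.13% of all tested genes. It was Samhd1, a nucleotide hydrolase that restricts viruses, at 33.5, 33.4 and 35.7 FPKM in treated samples, against 44.0, 50.6 and 48.6 FPKM in untreated samples (log2 change -0.47, SE 0.11, limma adjusted p = 0.0304, n = 3 per group). The adaptor genes Mavs and Tmem173 (STING) and the kinase gene Tbk1 had log2 changes of 0.20, 0.16 and -0.19 and adjusted p = 0.325, 0.413 and 0.481. Mb21d1, the DNA sensor cGAS, measured 1.19 to 1.41 FPKM in treated and 0.996 to 1.69 FPKM in untreated samples. Among 41 tested further interferon-stimulated genes the median log2 change was -0.32, with 34 negative estimates, and 31 genes were not called. The other 10 were called lower, where 5.13% of all tested genes were. These are Ifit3b, described above, and 9 others.

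Further synthetases made up 3 of them, all paralogs of members. Oas1b measured 3.06, 2.52 and 2.50 FPKM in treated samples, against 7.13, 5.25 and 6.50 FPKM in untreated samples (log2 change -0.98, limma adjusted p = 0.00760). Oas1g measured 3.42, 3.39 and 3.26 FPKM in treated samples, against 7.42, 5.23 and 4.84 FPKM in untreated samples (log2 change -0.63, adjusted p = 0.0433). Oas2 measured 0.522, 0.483 and 0.344 FPKM in treated samples, against 1.16, 2.03 and 1.53 FPKM in untreated samples (log2 change -0.82, adjusted p = 0.0204). None of the 3 overlapped between groups. Another synthetase gene, Oas1c, did overlap and was not called (log2 change -0.07, limma adjusted p = 0.835). Of the GTPase genes among the further interferon-stimulated genes, Gbp4 and Iigp1 were called and likewise apart. The tested Gbp6 and Gbp7 overlapped between groups and were not called (limma adjusted p = 0.407 and 0.175). Gbp4 measured 0.810, 0.847 and 0.519 FPKM in treated samples, against 1.62, 2.31 and 2.79 FPKM in untreated samples (log2 change -0.90, limma adjusted p = 0.0180). Iigp1 measured 0.705, 0.689 and 0.216 FPKM in treated samples, against 1.497, 1.602 and 1.86 FPKM in untreated samples (log2 change -0.80, adjusted p = 0.0255).

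Ifitm1, unlike its abundant relatives Ifitm2 and Ifitm3, was called, at 2.45, 3.38 and 1.44 FPKM in treated samples, against 5.54, 7.73 and 6.03 FPKM in untreated samples (log2 change -1.15, limma adjusted p = 0.0162). The difference between the paralogs was not tested. Sp100, a nuclear body protein, measured 6.33, 5.81 and 4.63 FPKM in treated samples, against 13.1, 11.2 and 10.96 FPKM in untreated samples (log2 change -0.96, adjusted p = 0.00735). Slfn9, of the Schlafen family, had the lowest estimate of the 5 lists, -1.26, at 3.35, 3.34 and 1.62 FPKM in treated samples, against 5.65, 7.34 and 11.2 FPKM in untreated samples. Ly6e, a membrane protein that restricts coronaviruses, measured 98.3, 102 and 116 FPKM in treated samples, against 166, 144 and 138 FPKM in untreated samples (log2 change -0.50, adjusted p = 0.0408). All 4 were free of overlap between groups. These genes were described because they were called, so the lack of overlap adds no separate evidence. Of the 41 tested further interferon-stimulated genes, 16 had all treated values below all untreated values. In 3 (Plscr1, Parp11 and Zc3hav1) they lay above, and in 22 the groups overlapped. Over all tested genes 17.3% lay below and 17% above.

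Markers of immune and endothelial cells were mostly at or near 0, but some markers differed between the groups. The immune markers Ptprc, Tyrobp, Cd163, Cd3g, Cd4, Cd8a, Ms4a1, Nkg7 and Siglech were listed at 0 in all 6 libraries. The summed level of 11 macrophage markers was 25.9 to 28.3 FPKM in treated and 14.2 to 19.1 FPKM in untreated samples, mostly from Cd14, which was called higher at 24.5, 22.2 and 23.4 FPKM in treated samples, against 15.8, 12.6 and 9.55 FPKM in untreated samples (log2 change 0.86, limma adjusted p = 0.0169). The other 2 tested macrophage markers, Cd68 and Lyz2, were not called and had log2 changes of -0.16 and -0.04 (adjusted p = 0.676 and 0.909). The higher sum therefore follows Cd14 and not the list. The sum of 10 lymphoid and dendritic markers was 0.565 to 1.04 FPKM in treated and 2.52 to 2.88 FPKM in untreated samples, mostly from Bst1, which was called lower at 0.889, 0.565 and 0.691 FPKM in treated samples, against 2.46, 2.74 and 2.85 FPKM in untreated samples (log2 change -1.11, adjusted p = 0.00454). Of the other markers in that list 7 were at 0 in all libraries, and Cd3e and Cd79a rested on 0 to 5 fragments per library. That sum therefore follows Bst1 alone and does not speak for lymphoid or dendritic cells. Endothelial markers, 6 in all, summed to under 1 FPKM in every library. The 10 fibroblast and preadipocyte markers summed to 4596 to 5226 FPKM in treated and 5913 to 6431 FPKM in untreated samples. That sum came mostly from Vim, Col1a1, Col1a2 and Col3a1, none of them called (limma adjusted p between 0.166 and 0.339). Of the 9 tested markers in that list Thy1 was called lower (log2 change -0.64, adjusted p = 0.0118) and 8 were not called. Thy1 measured 127, 141 and 144 FPKM in treated samples, against 217, 209 and 218 FPKM in untreated samples. Estimates were negative for 8 of the 9, and that of Pdgfrb was 0.16 (adjusted p = 0.576). The 14 mature adipocyte markers summed to 367 to 535 FPKM in treated and 403 to 427 FPKM in untreated samples. The part of these cell types in the results was not tested.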

How the data were processed

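RNA of 6 samples was profiled by sequencing. Per the labels' protocols, TRIzol was used for extraction and a TruSeq kit for the libraries. The submitters' processing notes name FastQC, HISAT2 and the build mm10. The sources used here do not give the counting tool, the annotation or the use of strand. The authors deposited 1 table of FPKM values, 1 column per sample. The labels place all libraries on 1 lane. Nothing in them says whether samples of a group were separate cultures, so the p-values may reflect technical spread alone. No library copied another (chi-square per degree of freedom 4.72 to 77.2 within groups). The highest of these was between untreated replicates 1 and 3. Untreated replicate 1 was closer to each treated library, at 39.85 to 61.6. Untreated replicate 3 lay at 78.2 to 103 from the treated libraries.

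Whole fragments and implied gene lengths were solved from the FPKM steps, within 0.005 fragments for all 22235 genes above 0, and speak to counting error only. The test was limma's (version 3.58.1, R 4.3.3), two-sided, with a mean-variance trend, applied to log2(FPKM + 1). It covered 11464 genes averaging 1 FPKM or more over the 6 samples, and p-values were adjusted over all of them by the Benjamini-Hochberg method. Fold changes on that scale understate those of low genes. In 1 simulated data set with known changes, the share of unchanged genes among the calls was above the nominal level. An exact permutation test of 3 against 3 cannot go below p = 0.1 and was not used. Positions are GENCODE M21 on GRCm38, the assembly of mm10, and promoters are RefSeq's. Values in every sample are given for called genes and, called or not, for Ifnar1, Ifnar2, Stat2, Irf9, Irf3, Irf7, Ifih1, Ddx58 and Dhx58, and further genes mostly by range or mean. Some genes of these lists are not reported here. The alternatives are in the closing section; the one with both the length trend removed and the replicate block was added after seeing the data. The members, lists and tests were chosen with earlier results of these data known. Python 3.11.15, numpy 2.4.6, pandas 2.3.3 and matplotlib 3.10.9 were also used.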

Additional observations from a re-analysis of the deposited data

How the results depend on the processing

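With 13 members called lower, the count moved by over 1.5 times with the replicate number as a block (8), without a filter on low values (4) and with the length trend removed (20). It also did so without untreated replicate 2 (1) and without flavonoids replicate 1, 2 or 3 (3, 5 and 6). Without untreated replicate 1 (15) or 3 (17) it moved by less. Whether samples of the same number belong together was not settled. Same-numbered libraries had correlations of deviations from the group means of -0.203 to -0.117. These values cannot decide it, because the deviations within each group sum to 0 by construction. Over all genes, 588 lower and 557 higher calls became 237 and 220 with the replicate block, 324 and 317 without a filter, 1131 and 1379 with the length trend removed, 911 and 1106 with the length trend removed and the block (a setting chosen after seeing the data), and 81 to 833 lower and 65 to 876 higher with 1 library left out. Pseudocounts of 0.1 and 5, a minimum mean of 5 FPKM, TPM, median-ratio and quantile scaling, no intensity trend, robust variance and voom on fragments gave 10 to 16 members lower. In none of the 19 settings was a member called higher. The members' median stayed between -0.53 and -0.31, and its shifts were smaller than the SD between replicates.

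Signs turned only for genes not called. The log2 change of Ifnar1 was 0.0886 and that of Ifnar2 0.00137 with the length trend removed, the same with the block, and that of Irf3 was -0.0516 on the TPM scale and -0.00220 with quantile normalization. With 1 library left out, Ifnar1 lay between -0.140 and 0.00401, Ifnar2 between -0.116 and 0.0681, Irf3 between -0.109 and 0.0805, Ifit2 between -0.383 and 0.0473, Ifitm2 between -0.178 and 0.0494 and Irgm1 between -0.309 and 0.112. The cause was not tested. Depth limits the untested members most, with 0 to 27 fragments per library for Igtp.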

Other observations

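Antigen processing and presentation genes, many of them inducible by interferons, were not called in either direction among the 8 tested of 16 (0 lower and 0 higher, and in all 8 the groups overlapped), with a median log2 change of -0.02. Over all tested genes 9.99% were called in either direction, and 17.3% and 17% had all treated values below or above all untreated values. With 8 genes, 0 calls lay near the general share and do not set this list apart. B2m, the light chain of class I molecules, measured 2954, 3152 and 2146 FPKM in treated samples, against 3258, 2632 and 2233 FPKM in untreated samples. H2-K1, a class I heavy chain, measured 28.7 to 36.3 FPKM in treated and 26.5 to 40.3 FPKM in untreated samples. H2-D1, Tapbp and Psmb9 were listed at 0 in all libraries.

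The 5 genes outside the list whose log2 values followed the members' mean profile most closely over the 6 samples were Gchfr, Cdkn3, 2810417H13Rik, Gm5511 and Raet1e, with Pearson's r of 0.997 to 0.999. This is a description over 6 samples in 2 groups, chosen as the top of the 11464 tested genes with the members left out. Gchfr, the feedback regulator of GTP cyclohydrolase, measured 17.5, 18.3 and 14.8 FPKM in treated samples, against 29.9, 27.9 and 23.1 FPKM in untreated samples. Cdkn3, a phosphatase of cyclin-dependent kinases, measured 10.6, 9.998 and 7.71 FPKM in treated samples, against 25.6, 21.9 and 15.5 FPKM in untreated samples.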
